A study of Drosophila melanogaster with 4 samples.

Results

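Transcripts named for the testis and the male accessory gland were examined in whole adult female Drosophila melanogaster. The set was drawn by gene name alone. It comprised the probe sets with a single platform symbol that begins with Acp and a digit (the cuticle gene group Acp65A left out), Mst or Sfp, together with dj, janB, ocn, don, boly, Pif2, betaTub85D and alphaTub84D. This gave 34 probe sets for 33 genes, among the 13966 fly probe sets and 10843 singly named genes of the array, and the brightest probe set over all 4 arrays stood for each gene. No member came from Sfp, don, boly or Pif2.

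The females were of the y, w strain. All were reared with yeast and then, from emergence, held on food lacking it for 5 days, a regime the labels give as lowering the flies' own juvenile hormone. Each then received 0.1 µl on the body surface, either acetone alone or acetone with 187 mM juvenile hormone III (JH III, a sesquiterpenoid insect hormone), and was frozen 12 hours later. There were 2 pools of 30 females per treatment, each on 1 Affymetrix DrosGenome1 array, so 4 arrays in all. The labels do not say whether the females had mated. In whole-body RNA, fewer cells of a type and less RNA per cell cannot be told apart.

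The accessory gland of the male fly makes seminal fluid proteins that pass to the female at mating and alter her egg laying, sperm storage and receptivity. The testis switches on a large programme in spermatocytes and stores many of the resulting messages untranslated until spermatids elongate. The proteins made then include those of the sperm tail and those that pack the sperm chromatin. A female has neither organ, so these genes show what the arrays report for transcripts whose main sources are lacking.

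The level against which each gene was set was the 95th percentile of 23 control probe sets for bacterial, yeast and mouse genes. These were taken as unspiked by their names alone, and whether any carried a spike was not tested. The level was 139 and 295 (signal units) on the acetone arrays of replicates 1 and 2, and 369 and 240 on the JH III arrays of replicates 1 and 2. It rests on the few brightest controls of each array. AFFX-LysX-3, for a bacterial gene, had 129 and 296 in acetone and 319 and 268 with JH III. The spiked hybridization controls differed between arrays, with medians of 4425 and 11755 on the acetone arrays and 32593 and 13427 on the JH III arrays. JH III replicate 1 was the highest and acetone replicate 1 the lowest. The ratio of 3′ to 5′ signal, a sign of RNA quality, divided the treatments. For GAPDH it was 15.5 and 10.2 on the acetone arrays and 2.32 and 5.75 on the JH III arrays, and for eIF4A 75.0 and 46.8 against 18.3 and 18.9. Acetone replicate 1 came from a chip lot of its own. Transcripts of the yolk proteins (Yp1, Yp2, Yp3), the defining products of adult females, had signals of 9745 to 42126 across the arrays. Signals of different probe sets depend on their probes, so levels were compared with the controls and not between genes.

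Members exceeded the level of the unspiked controls on fewer arrays than genes at large did. The level was exceeded on 0 arrays by 18 of the 33 genes (54.5%), against 22.5% of all genes, and on all 4 arrays by 4 (12.1%), against 31.9% of all genes. Another 3 exceeded it on 3 arrays, 2 on 2 arrays and 6 on 1 array. Among the unspiked controls themselves 18 of 23 exceeded it on 0 arrays, a share largely fixed by drawing the level from them. The 33 genes had median signals of 33.0 and 112 on the acetone arrays and 222 and 57.5 on the JH III arrays. The unspiked controls had medians of 32.6 and 53.4, and 68.1 and 72.9, in the same order. The members' medians were therefore above those of the controls on acetone replicate 2 and JH III replicate 1 and about equal to or below them on the others.

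**Figure D1:**
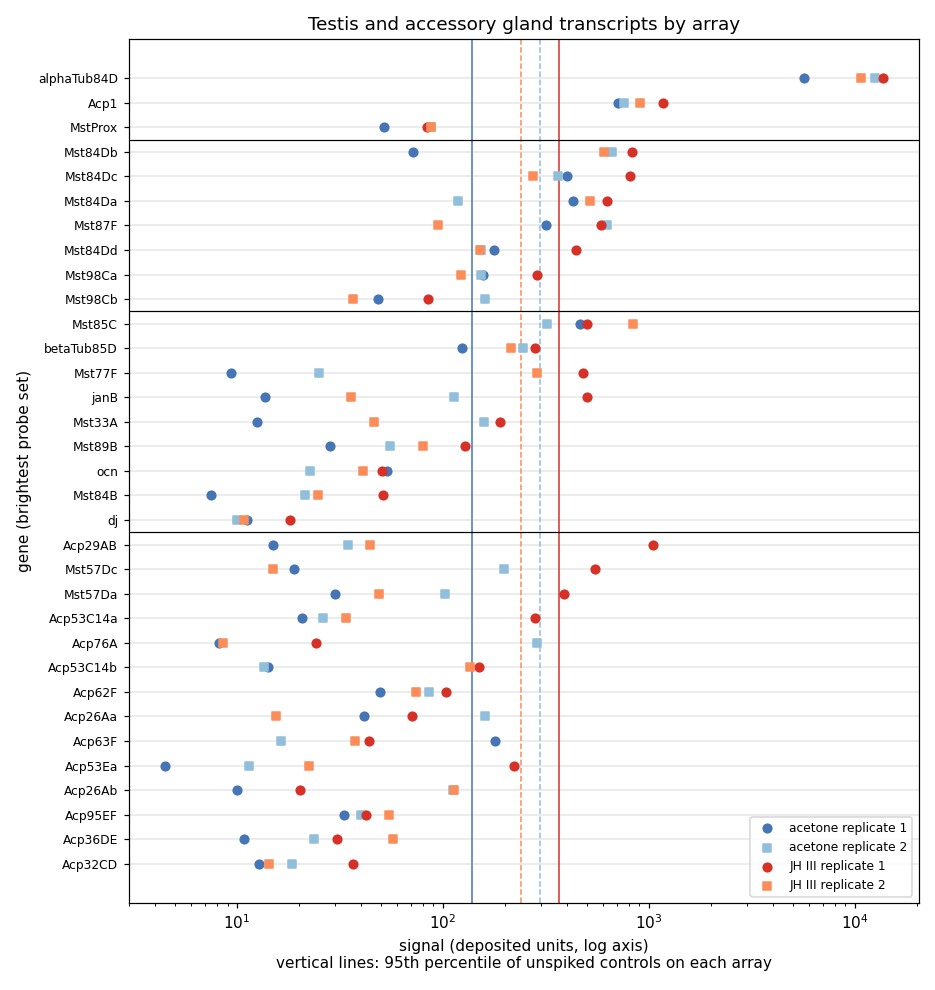
Signal of each of the 33 genes (log axis, deposited units) on the 4 arrays, 1 point per array, grouped from the bottom as accessory gland genes, other testis and Mst genes, the Cys-Gly-Pro repeat family, and MstProx, Acp1 and alphaTub84D. The vertical lines are the unspiked control levels of 139, 295, 369 and 240, and most points of the lower groups lie to their left.

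Of the 4 genes above the level on all arrays, 2 (Acp1 and alphaTub84D) bear names from other biology, and the name of Mst85C may do so too. Acp1 is an adult cuticle protein, which the naming rule takes in because of its prefix. Its signals were 707 and 759 with acetone and 1171 and 911 with JH III. Both JH III arrays lay above both acetone arrays, but the log2 difference of 0.45 ± 0.44 (SE, on log2(signal + 83)) did not pass (limma adjusted p = 0.848).

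alphaTub84D encodes an alpha-tubulin used in most tissues, and its product is nearly identical to that of alphaTub84B, so that its signal may include that gene's transcript. Signals were 5699 and 12567 with acetone and 13686 and 10717 with JH III. The groups overlapped, and acetone replicate 1 was the lowest array. The log2 difference was 0.51 ± 0.38 (SE, limma adjusted p = 0.796), and without acetone replicate 1 it was -0.05. A dimmer probe set of the gene ran from 4309 to 9270, lowest on the same array. betaTub56D, the main beta-tubulin of most tissues, was likewise lowest there, with 7775 and 18556 in acetone and 19554 and 17290 with JH III.

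MstProx is listed in the RefSeq gene table as Toll-3, a receptor of the Toll family, and lies beside the Mst84D genes. It was under the control level on all 4 arrays, between 51.5 and 87.9. With Acp1, alphaTub84D and MstProx set aside, 30 genes remained, of which 17 exceeded the level on 0 arrays and 2 (Mst84Dc and Mst85C) on all 4.

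The 14 accessory gland genes were near the controls. The level was exceeded on 0 arrays by 10 of them and on 1 array by the other 4. Their highest mean signal over the arrays was 287 and their median was 75.2. Acp26Aa (ovulin, which stimulates egg release after mating) ran from 15.4 to 161. Acp36DE, needed for sperm storage, ran from 10.8 to 57.5. Acp62F, a protease inhibitor, ran from 49.3 to 104, and Acp76A, a serpin, from 8.16 to 286. Acp26Ab, Acp32CD and Acp95EF stayed between 10.05 and 113. None of these came above the level on any array.

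Acp29AB, a lectin that helps retain sperm in storage, depended on 1 array. Its signals were 14.9 and 34.6 with acetone and 1054 and 44.3 with JH III, where 1054 was replicate 1 and 2.86 times that array's control level. The groups did not overlap, yet JH III replicate 2 was only slightly above the acetone arrays. The log2 difference was 1.83 ± 0.91 (SE, unadjusted p = 0.0477 and limma adjusted p = 0.675). Without JH III replicate 1 it was 0.25.

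Mst57Da and Mst57Dc encode small accessory gland peptides, and their genes have 2 others between them in the RefSeq table. Mst57Da had 29.9 and 103 with acetone and 389 and 48.9 with JH III. Mst57Dc had 19.0 and 198 with acetone and 547 and 15.0 with JH III. Both exceeded the level on JH III replicate 1 alone, and in both the other JH III array lay within or below the acetone range. Acp63F exceeded it on acetone replicate 1 alone, at 180 against 16.4 to 43.7 elsewhere.

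Acp53C14a, Acp53C14b and Acp53Ea, seminal fluid genes that follow each other directly, were higher on both JH III arrays without reaching the control level. In each of the 3 both acetone arrays (4.45 to 26.1 over the trio) lay below both JH III arrays (22.5 to 279). The same separation was seen in 23.2% of all genes, 28.7% of the genes below the filter on low signals and 7 of the 23 unspiked controls. Acp53C14b was the member of the trio in which the JH III arrays were alike, at 150 and 135 against 14.1 and 13.5 in acetone. Since every value lay under the control level of its array, no fold is given. The mean signals of these 3 genes fell under that filter, and limma did not test them.

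The Cys-Gly-Pro repeat genes exceeded the control level on 3 or more arrays in 4 of 7 cases, against 46.9% of all genes. Measured against the highest unspiked control instead, 2 of 7 did, against 38.7%. This family, Mst84Da, Mst84Db, Mst84Dc, Mst84Dd, Mst87F, Mst98Ca and Mst98Cb, encodes small proteins built of repeated cysteine, glycine and proline that lie in the sperm tail. Of the 7, 1 exceeded the control level on all 4 arrays, 3 on 3 arrays, 1 on 2, 1 on 1 and 1 on 0. Mst84Da to Mst84Dd are direct neighbours, as are Mst98Ca and Mst98Cb. The proteins resemble each other, and how far the probe sets share target was not tested.

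Mst84Dc was the member above the level throughout, with 402 and 364 in acetone and 809 and 273 with JH III. The acetone values lay between the JH III values (log2 difference 0.28 ± 0.58 SE, limma adjusted p = 0.938).

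Mst84Db had 71.8 and 661 in acetone and 826 and 607 with JH III. Only acetone replicate 1 was low, and the log2 difference of 1.22 ± 0.60 (SE, unadjusted p = 0.0456, limma adjusted p = 0.675) was 0.09 without that array. Mst84Da showed its low value on the other acetone array, with 430 and 118 in acetone and 625 and 520 with JH III. Its groups did not overlap, and the log2 difference was 1.02 ± 0.62 (SE, limma adjusted p = 0.767).

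Mst87F ran the other way, with 318 and 626 in acetone and 585 and 94.5 with JH III (log2 difference -0.63 ± 0.65 SE, limma adjusted p = 0.854). JH III replicate 2 was its low array, and without it the difference was 0.33. Mst84Dd exceeded the level on acetone replicate 1, at 177, and JH III replicate 1, at 442, and had 153 and 151 on the remaining arrays. Mst98Ca had 156 and 153 in acetone and 286 and 122 with JH III, with overlap (log2 difference 0.21 ± 0.80 SE, limma adjusted p = 0.963). Mst98Cb stayed between 36.6 and 160, under the level on every array. JH III replicate 1 was the highest array for 5 of the 7, and acetone replicate 2 for Mst87F and Mst98Cb.

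**Figure D2:**
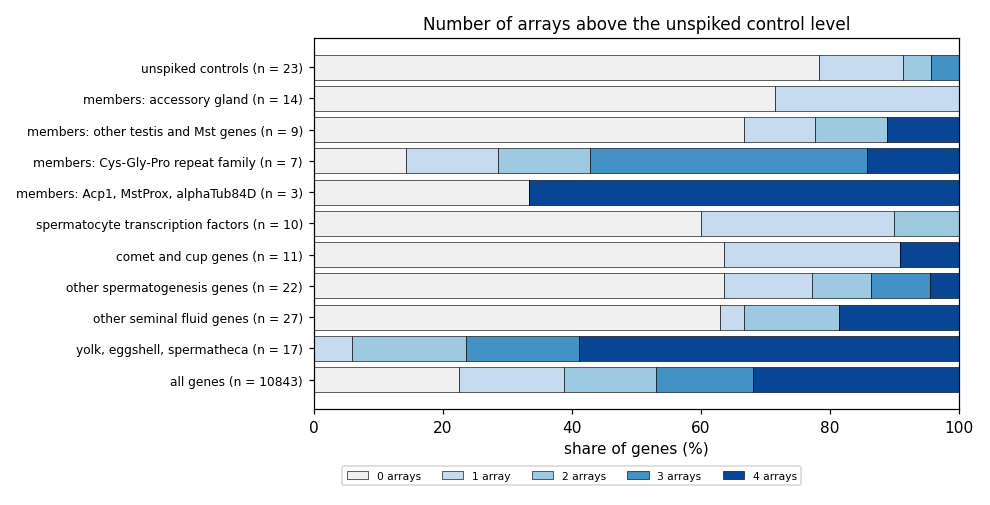
Share of genes (%) whose signal exceeded the unspiked control level on 0, 1, 2, 3 or 4 arrays. Bars are the unspiked controls, 4 groups of members, 4 lists of other genes of male functions, female genes and all genes. Of the accessory gland members 10 of 14 were above it on 0 arrays, of the Cys-Gly-Pro repeat genes 1 of 7.

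Among the 9 other testis and Mst genes, 6 exceeded the level on 0 arrays. dj (don juan), a protein of the sperm tail and its mitochondria, had the lowest mean of the 33 and stayed far under the control level, at 11.2 and 10.03 in acetone and 18.0 and 10.8 with JH III. ocn, a testis relative of janB and its direct neighbour, ran from 22.6 to 53.6. Mst33A, Mst84B and Mst89B lay between 7.51 and 190.

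betaTub85D, the testis beta-tubulin of the sperm axoneme, lay under the control level on every array. Its signals were 124 and 246 in acetone and 280 and 215 with JH III, in the same order of arrays as the control level. The groups overlapped, and the log2 difference was 0.33 with a 95% interval of -1.17 to 1.84 (limma adjusted p = 0.942). janB, a testis protein of the janus family, had 13.7 and 113 in acetone and 499 and 35.7 with JH III. It exceeded the level on JH III replicate 1 alone, and without that array the log2 difference turned from 0.93 to -0.22.

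Mst77F, a histone-like protein that helps compact sperm chromatin, had the largest log2 difference among the members tested. Its signals were 9.39 and 25.1 in acetone and 481 and 287 with JH III. Both acetone arrays lay under their control levels and both JH III arrays above theirs. The geometric mean of the JH III signals was 1.83 times that of the acetone arrays' control levels. As the level differs between arrays, this is not a least fold between the groups. The log2 difference was 2.19 ± 0.85 (SE, 95% interval 0.50 to 3.89). It had an unadjusted limma p of 0.012 and did not pass over all probe sets (limma adjusted p = 0.529). Over 13 alternatives the difference ran from 1.21 to 4.50. The gene passed the filter on low signals only through its JH III arrays, so nothing is read from that sign. The signals of 481 and 287 were 1.31 and 1.19 times the control levels of their arrays, which were themselves higher on JH III replicate 1 than on either acetone array. Only on JH III replicate 2 did Mst77F exceed the highest unspiked control, since 1 of them read 632 on replicate 1. An unspiked control for a bacterial gene, AFFX-PheX-5, had a like pattern, with 8.09 and 34.2 in acetone and 329 and 152 with JH III.

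Mst85C, grouped here by its Mst name, stands beside Acp1 in the gene lists as a name that may belong to another protein, and its role is not described. It exceeded the level on all 4 arrays. Its signals were 463 and 322 in acetone and 501 and 841 with JH III. The groups did not overlap (log2 difference 0.64 ± 0.54 SE, limma adjusted p = 0.825).

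Across treatments no member passed the test. Of the 33 genes 15 were above the filter (a mean signal of 125) and were tested, and limma called 0 higher and 0 lower, against 0.162% of the 10474 probe sets tested (0.0286% higher and 0.134% lower). Before adjustment 3 members (Mst77F, Acp29AB and Mst84Db) had a limma p under 0.05, against 7.29% of probe sets (3.54% higher and 3.75% lower). Mst77F, Acp29AB, janB, Mst57Da and Mst57Dc, with acetone means of 17.3, 24.7, 63.6, 66.4 and 109, passed the filter only through JH III arrays. Nothing is therefore read from the sign of their differences. The t-test that the study's methods name gave 1 such member and called 0 after adjustment. With 2 arrays per group the test was coarse, and the 95% intervals of the 15 genes reached from -1.93 to 3.89.

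**Figure D3:**
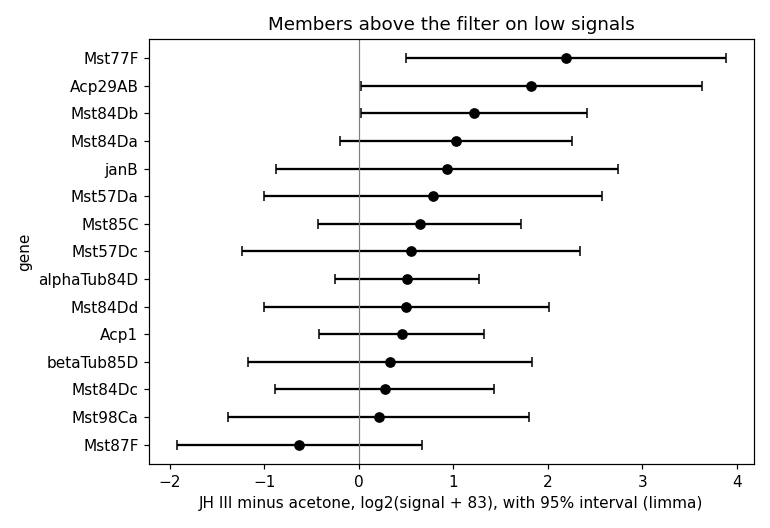
Log2 difference, JH III minus acetone, of the 15 members above the filter on low signals, with limma's 95% intervals. Intervals of Mst77F, Acp29AB and Mst84Db exclude 0 before adjustment, and 0 members passed after it.

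More members had positive than negative differences, as did the controls. The difference was positive for 28 of the 33, against 57.8% of all genes and 18 of the 23 unspiked controls. It was positive for 21 after quantile normalization and for 26 after median centring. The JH III arrays were both above both acetone arrays for 12 members (36.4%), against 23.2% of all genes, 28.7% of those below the filter and 7 of the 23 controls (30.4%). They were both below for 0 members and 0 controls, against 14.2% of all genes. The median difference was 0.33 on the log2 scale, beside 0.12 over all genes, 0.18 over the 2388 genes below the filter and 0.29 over the unspiked controls. Without JH III replicate 1 the members' median was 0.14 and 20 of 33 were positive, and without JH III replicate 2 it was 0.62. The 3′ to 5′ ratios, lower on both JH III arrays, moved with the treatment, and their part in these differences was not tested.

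**Figure D4:**
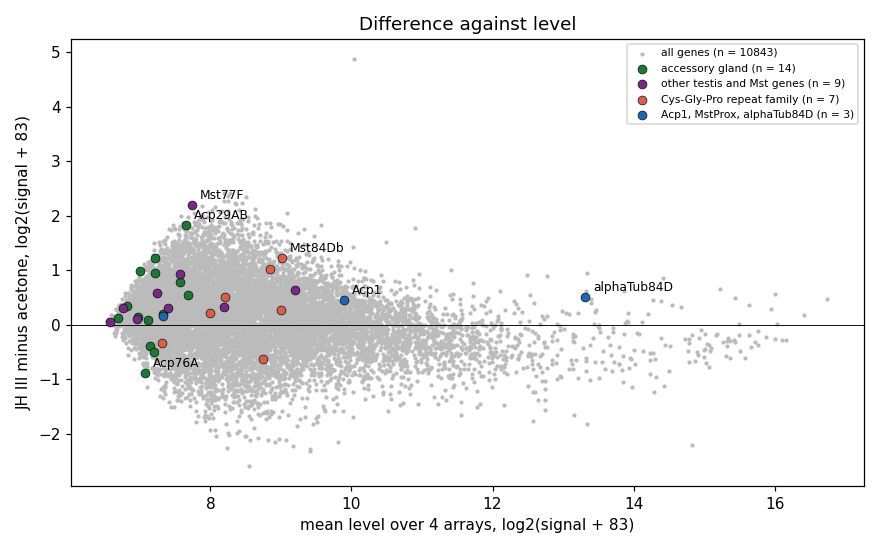
Log2 difference, JH III minus acetone, against the mean level over the 4 arrays on the log2(signal + 83) scale, for 10843 genes (grey) and the 33 members (coloured by group). Most members lie at the left, and 28 of 33 are above 0.

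JH III replicate 1 was the highest array for 22 of the 33 members (66.7%), against 36.5% of all genes, 38.1% of the genes below the filter and 11 of 23 unspiked controls. Above the control level on that array alone were 4 members (Acp29AB, Mst57Da, Mst57Dc and janB), 12.1% against 3.76% of all genes. On that array 13 members exceeded the level (39.4%, against 48% of all genes), while 9, 6 and 7 did on acetone replicate 1, acetone replicate 2 and JH III replicate 2 (against 64.1%, 49% and 56.4%). The part of that array's spike signals in these values was not tested. The signal varied over 10-fold between arrays for 14 members (42.4%), against 13.6% of all genes, 17.7% of genes below the filter and 7 of 23 controls. The median ratio of highest to lowest array was 5.33 for the members, 3.32 for all genes, 4.26 for genes below the filter and 6.49 for the controls.

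**Figure D5:**
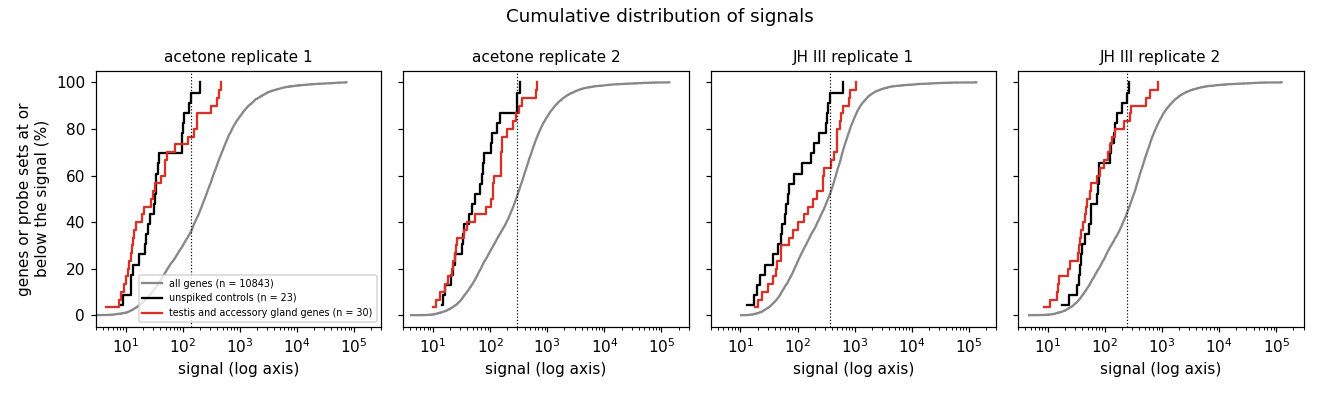
Cumulative share (%) of the 30 testis and accessory gland genes without Acp1, alphaTub84D and MstProx (red), of the 23 unspiked controls (black) and of all 10843 genes (grey) at or below a signal (log axis), 1 panel per array. The dotted line is the control level, and the red curve lies left of the grey one on every array; its median (206) is farthest above that of the black one (68.1) on JH III replicate 1, where 11 of the 30 exceed the level.

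Other genes, listed for male functions, mostly stayed under the control level, with 44 of 70 above it on 0 arrays. Whether the listed genes are limited to males was not tested. Of 10 spermatocyte transcription factors, which switch on the testis programme, 6 exceeded the control level on 0 arrays and 0 on all 4. Of 11 comet and cup genes, transcribed late in spermatids, 7 were above it on 0 arrays, and m-cup on all 4 (511 and 764 in acetone, 1034 and 780 with JH III). Of 22 other spermatogenesis genes 14 were above it on 0 arrays and bol on all 4 (3389 and 2949, 2725 and 3225), a regulator of translation in male meiosis. Of these 43 genes 18 were above the filter, and limma called 0 of them in either direction, with 0 at an unadjusted p under 0.05.

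Of 27 other genes of the accessory gland and ejaculatory tract 17 exceeded the level on 0 arrays and 5 on all 4. The 5 were EbpIII, the peptidase Ance, the odorant-binding proteins Obp56g and Obp56e, and hdly. EbpIII, named for the ejaculatory bulb, had 32609 and 17492 in acetone and 7421 and 15705 with JH III, without overlap. Its log2 difference of -1.14 ± 0.42 (SE, unadjusted p = 0.0083) did not pass (limma adjusted p = 0.476), and limma called 0 of the 11 genes of this list above the filter. By contrast 0 of 17 yolk, eggshell and spermatheca genes exceeded the level on 0 arrays and 10 did on all 4, with 0 called. Before adjustment 3 of the 17 (Vm26Ac, Vm32E and Cp15) were higher and 1 (Cp16) lower at a limma p under 0.05, against 3.54% and 3.75% of probe sets. Vm26Ac had 29.5 and 61.1 in acetone and 872 and 254 with JH III. It passed the filter only through its JH III arrays, so nothing is read from its sign.

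Within the tubulin family the testis gene was the one above the level on 0 arrays. Of 8 measured tubulin genes, 6 exceeded the control level on all arrays. The others besides those above were alphaTub85E (1318 to 1620), the maternal alphaTub67C (987 to 1703), betaTub60D (790 to 1196), betaTub97EF (1223 to 1808) and the maternal gammaTub37C (129 to 484, above the level on 2 arrays). The log2 differences of the 8 ran from -0.38 to 0.61, and limma called 0.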

How the data were processed

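The deposited table gives an intensity for each probe set on each array, on a linear scale, with 2% trimmed means of 500.1 throughout, so the authors' scaling was kept. The software that condensed the probe pairs was not given in the sources used here. Trizol and chloroform served for RNA extraction and biotin as label, per the labels. The table held 14010 probe sets, 44 of them Affymetrix controls. Names came from the platform annotation where it gave 1 symbol, and neighbouring genes from a RefSeq table (assembly Release 6 plus ISO1 MT), in which all 33 members matched. No sequences or coordinates are given. Values were tested as log2(signal + 83), 83 being the 25th percentile of all values, after the lowest 25% of probe sets by mean were left out (10474 kept). limma 3.58.1 in R 4.3.3 (lmFit, eBayes with trend, two-sided, Benjamini-Hochberg over all probe sets, threshold 0.05) left 2 residual degrees of freedom, or 67.4 once moderated, so most of the spread is borrowed from other probe sets. Replicates are separate pools on separate arrays. Genes below the filter were not tested. For Mst77F the ratio to the acetone control levels sets its low acetone values at those levels. The number of arrays and the low signal over background limit precision. The fit was tested on simulated data. Named were members above the control level on all arrays, those of unadjusted p under 0.05, the 5 of highest mean, the 5 of largest and of smallest difference among those tested, betaTub85D, alphaTub84D, dj and janB, and up to 4 bright genes per list. The members, lists and rule were chosen with earlier results of these data known. Of 2 RNAs of the male X chromosome (roX1, roX2) and 12 Y genes sought by name, 0 matched a singly named probe set. They were therefore not analysed here. Plots used matplotlib 3.10.9 under Python 3.11.15, and tables were read with pandas 2.3.3.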

Additional observations from a re-analysis of the deposited data

How the results depend on the processing

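The count of members called stayed 0 under 14 other settings (the methods' t-test, eBayes with no trend, pseudocounts of 1 or 256, quantile normalization, median centring, a filter of 50% or none, the replicate block, averaged probe sets, each array left out), with 0 to 5 members at an unadjusted p under 0.05. Over all probe sets the count was 17 and ran from 0 to 36. With the replicate number as a block 0 members and 2 probe sets were called. Same-numbered arrays did not deviate together (correlation -0.11), and the crossed pairing, added after the data were seen, called 0 members and 109 probe sets. The median difference, 0.33, was 0.55 and 0.20 with the other pseudocounts, 0.18 after quantile normalization or median centring, and 0.14 to 0.62 with an array left out. These scalings moved the median of all genes from 0.12 to 0.00081 and -0.10. Members above the control level on all arrays were 3 to 5, and on 0 arrays 16 to 24. Without Acp1, alphaTub84D and MstProx, a choice made after seeing the data, they were 2 and 17. Of 165 pairs of a named member and an alternative, 157 kept their direction and 8 did not, and the cause was not tested. Mst98Ca turned to -0.031 after quantile normalization and to -0.010 after median centring. With an array left out Mst98Ca ran from -0.21 to 0.63, Mst84Dc from -0.39 to 0.94, Mst87F from -1.59 to 0.33, alphaTub84D from -0.053 to 1.08, betaTub85D from -0.0032 to 0.67 and janB from -0.22 to 2.08.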

Other observations

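The sex peptide gene SP, the seminal fluid product that lowers a mated female's receptivity, is not among the members because its platform symbol lacks the Acp prefix, and it was chosen here after its values were seen. Its signals were 205 and 66.9 in acetone and 308 and 512 with JH III, above the control level on acetone replicate 1 and JH III replicate 2. The log2 difference was 1.21 ± 0.73 (SE), with an unadjusted limma p of 0.102. The spermatocyte gene can, also chosen after its values were seen, had 172 and 153 in acetone and 14.7 and 17.6 with JH III, above the level on acetone replicate 1 alone and below the filter. The protamine gene ProtB, whose product replaces histones in sperm, had 43.3 and 106 in acetone and 403 and 183 with JH III. It was 1 of 6 among the 70 genes of the 4 male lists (8.57%) that exceeded the control level on JH III replicate 1 alone, with comr, mia, msopa, Pkd2 and sunz, against 3.76% of all genes. Their signals on that array were 403 to 573, and 221 at most elsewhere.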
